A study of Homo sapiens with 8 samples.

Results

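The MSL subunit genes MSL1, MSL2 and MSL3 and the MYST acetyltransferase genes KAT5, KAT6A, KAT6B and KAT7 were examined in the PHF20 and PHF20L1 peak lists. These 7 genes, of 20033 protein-coding genes in all, were chosen by function. KAT8, the acetyltransferase of the NSL (nonspecific lethal) complex, also forms the MSL (male-specific lethal) complex, and the 4 KAT genes encode the enzymes related to it. The peaks came from HA ChIP-Seq in U2OS, a human osteosarcoma cell line. ChIP-Seq sequences the DNA recovered with an antibody, so that regions with more reads than the input mark binding. In all 8 libraries the cells over-expressed PHF20 or PHF20L1 with a 3xHA tag, a short peptide recognized by the antibody. The PHF20 group had 2 ChIP libraries and 1 input library, all N-3xHA PHF20. The PHF20L1 group had 3 ChIP libraries, 1 with N-3xHA PHF20L1 and 2 with C-3xHA PHF20L1, and 2 input libraries, 1 for each tag position. The binding is therefore that of ectopic, tagged proteins. For each protein 1 final list was used, with 4147 peaks for PHF20 and 723 for PHF20L1, given as positions on hg38 without height, read count or depth. Each list holds peaks of the library with the best signal that overlapped peaks of the other libraries of that protein. It gives no values by library, so no spread between replicates could be computed and no test was made on the 7 genes.

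In the MSL complex, MSL1 is the scaffold that holds KAT8, MSL3 is a chromodomain protein that stimulates the enzyme and MSL2 is a RING finger ubiquitin ligase. The complex acetylates histone H4, and its fly counterpart is known for dosage compensation of the male X chromosome. KAT5 (TIP60) is the catalytic subunit of the NuA4 complex, which acetylates histones H4 and H2A in transcription and DNA repair. KAT6A (MOZ) and KAT6B (MORF) acetylate histone H3 together with BRPF proteins, and KAT7 (HBO1) works with BRPF or JADE proteins and supports DNA replication.

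Genes were counted if at least 1 bp of a peak fell in the promoter window of one of their GENCODE transcripts. The window spans 1000 bp on the upstream and 500 bp on the downstream side of the transcription start site (TSS). PHF20 peaks were found at 2 of the 7 genes, KAT5 and KAT6B, against 20.7% of all protein-coding genes. A PHF20L1 peak was found at 1 gene, KAT5, against 3.82% of all. MSL1, MSL2, MSL3, KAT6A and KAT7 had neither. No peak lay in the body of any of the 7 genes outside these windows, so the counts remained 2 and 1 with gene bodies included, against 22% of all genes for PHF20 and 4.19% for PHF20L1. With 7 genes, a difference of 1 gene moves the share by more than its distance from the PHF20 background, and nothing is read from these counts about the gene list as a whole. For the 5 genes without a peak, the lists say only that no region passed the thresholds of the authors, and binding below these cannot be judged.

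**Figure D1:**
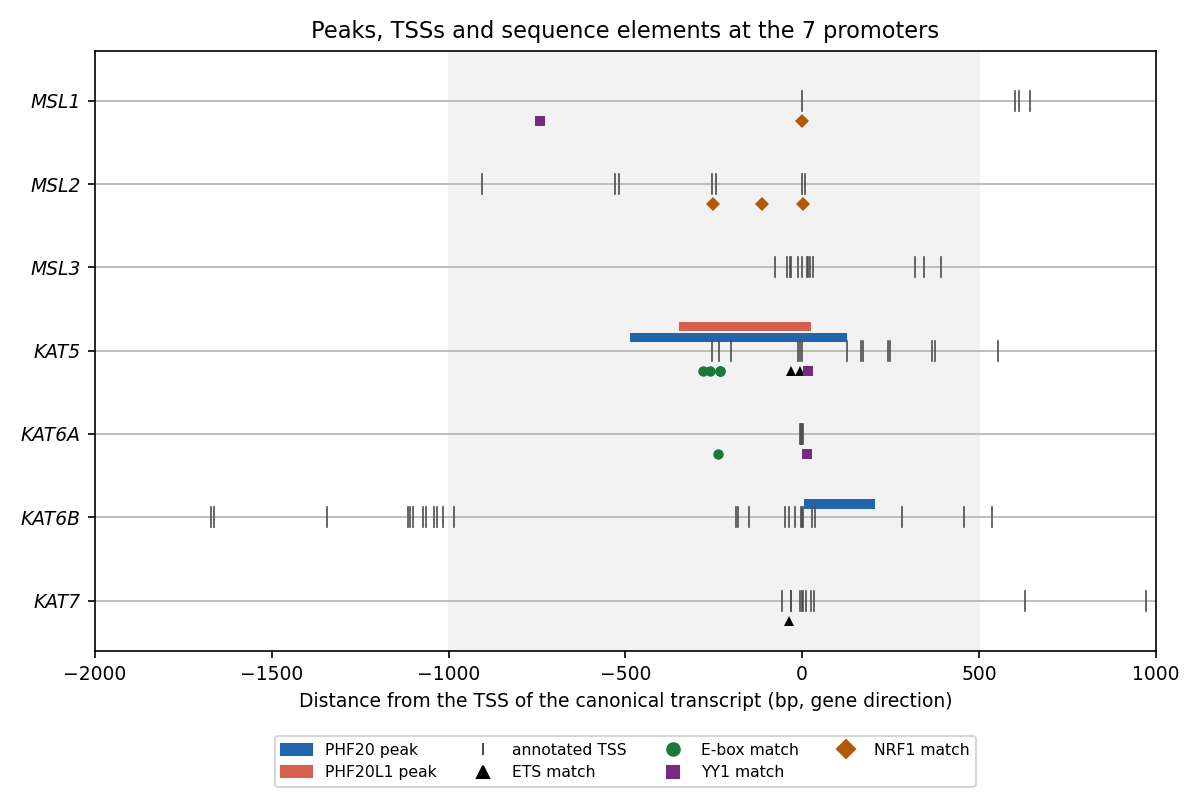
Position of peaks (bars), annotated TSSs (ticks) and sequence matches (symbols) by distance in bp from the TSS of the canonical transcript, along the direction of each gene, with the promoter window of that transcript shaded. KAT5 has a PHF20L1 peak inside its PHF20 peak with all of its sequence matches under both, KAT6B has a PHF20 peak of 200 bp just past the TSS, and the other 5 genes have no peak.

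The sequence of the bound KAT5 promoter is shown because it carries several copies of elements known from promoters. The first line gives chr11:65711766-65711995, the part of the PHF20 peak before the outermost TSS, which overlaps no annotated exon. The other lines give stretches of 20 bp further downstream, chr11:65712010-65712029, chr11:65712210-65712229, chr11:65712235-65712254 and chr11:65712259-65712278. All are the plus strand of hg38, and capitals mark matches to 8-bp elements on either strand.
KAT5 upstream: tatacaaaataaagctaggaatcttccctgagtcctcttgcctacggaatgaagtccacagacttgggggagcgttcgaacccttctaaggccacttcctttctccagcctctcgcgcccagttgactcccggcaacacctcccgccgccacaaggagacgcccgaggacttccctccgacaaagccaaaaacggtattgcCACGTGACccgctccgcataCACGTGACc
KAT5 overlapping E-box pair: tgggcGTCACGTGACggact
KAT5 ETS match 1: tcggtcCCGGAAGTgacgtc
KAT5 ETS match 2: gaggggCCGGAAGTggcagt
KAT5 YY1 match: ggagggAAGATGGCggaggt

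For comparison, promoters without a peak are shown for KAT7, MSL1, MSL2 and MSL3, with capitals as before and each sequence on the strand of its gene. KAT7 (chr17:49788634-49788653, plus strand) has an ETS match like those of KAT5. MSL1 (chr17:40121961-40121980, plus strand) and MSL2 (chr3:136196440-136196459, minus strand) have NRF1 matches. The 150 bp before the outermost TSS of MSL3 (chrX:11758009-11758158, plus strand) hold 27 CpG dinucleotides and no match.
KAT7 ETS match: acccagCCGGAAGTgaagga
MSL1 NRF1 match: ctccccGCGCATGCgtcctc
MSL2 NRF1 match: cagcttGCGCATGCgtggag
MSL3 upstream: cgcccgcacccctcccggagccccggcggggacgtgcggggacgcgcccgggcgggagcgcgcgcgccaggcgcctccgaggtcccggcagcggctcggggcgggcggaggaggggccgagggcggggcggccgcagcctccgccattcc

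KAT5 (ENSG00000172977.13) lies on chromosome 11 from 65711996 to 65719604, on the plus strand. Its PHF20 peak extended from 65711766 to 65712377 and had a width of 612 bp, which is percentile 51.1 in the PHF20 list. Its PHF20L1 peak extended from 65711905 to 65712277 with a width of 373 bp, percentile 62.7 in the PHF20L1 list. Both peaks were thus near the middle of their lists, whose median widths were 599 and 314 bp. The PHF20 peak contained the TSSs of 6 transcripts and reached the window of 14 of the 17 annotated transcripts of KAT5, and the same numbers held for the PHF20L1 peak. It started at -486 and ended at 125 bp from the canonical TSS at 65712252, and its centre was 20.5 bp downstream of the nearest annotated TSS. Of its 612 bp, 230 lay before the gene and 382 in annotated exons, 110 of them coding. No TSS window of another annotated gene lay under either peak, so the peaks at this site are assigned to KAT5 alone.

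At KAT5 the peak of PHF20L1 was nested in that of PHF20. The PHF20L1 peak lay entirely inside the PHF20 peak, 139 bp from its upstream and 100 bp from its downstream edge, and the peak centres were 19.5 bp apart. Across the 682 overlapping pairs of both lists, 91.6% of PHF20L1 peaks lay inside the PHF20 peak and the median distance of the centres was 78.8 bp. The PHF20L1 peak covered 60.9% of the PHF20 peak, against a median of 37.4% over all pairs. The overlap exceeded 50% of both peaks, as in 170 of the 682 pairs (24.9%). The KAT5 peak was narrow for a shared PHF20 peak, at percentile 15.03 of the 672 PHF20 peaks that overlapped a PHF20L1 peak, whose median width was 949 bp. Among all protein-coding genes, 18.0% of those with a PHF20 promoter peak also had a PHF20L1 one.

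KAT6B (ENSG00000156650.14) lies on chromosome 10 from 74824927 to 75032624, on the plus strand. Its PHF20 peak extended from 74826605 to 74826804. The width of 200 bp is the smallest in the list and is shared by 75 PHF20 peaks (1.81%). The authors had set the extension size in peak calling to the same 200 bp, so this width may be a floor of the calling. The peak began 5 bp downstream of the canonical TSS at 74826600 and contained the TSSs of 2 transcripts. It reached the windows of 16 of 41 annotated transcripts, with 181 bp in exons, none of it coding, and 19 bp in introns. The window of the outermost TSS, at 74824927, ends before the peak, so that KAT6B had no promoter peak when only the outermost TSS of each gene was used. The nearest PHF20L1 peak was 1658434 bp away, at the promoter of ECD. The central 30 bp of the KAT6B peak (chr10:74826690-74826719, plus strand) are shown to mark the site and hold 4 CpG dinucleotides.
KAT6B centre: tggcggaggcgacggcacctcctccaggcg

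**Figure D2:**
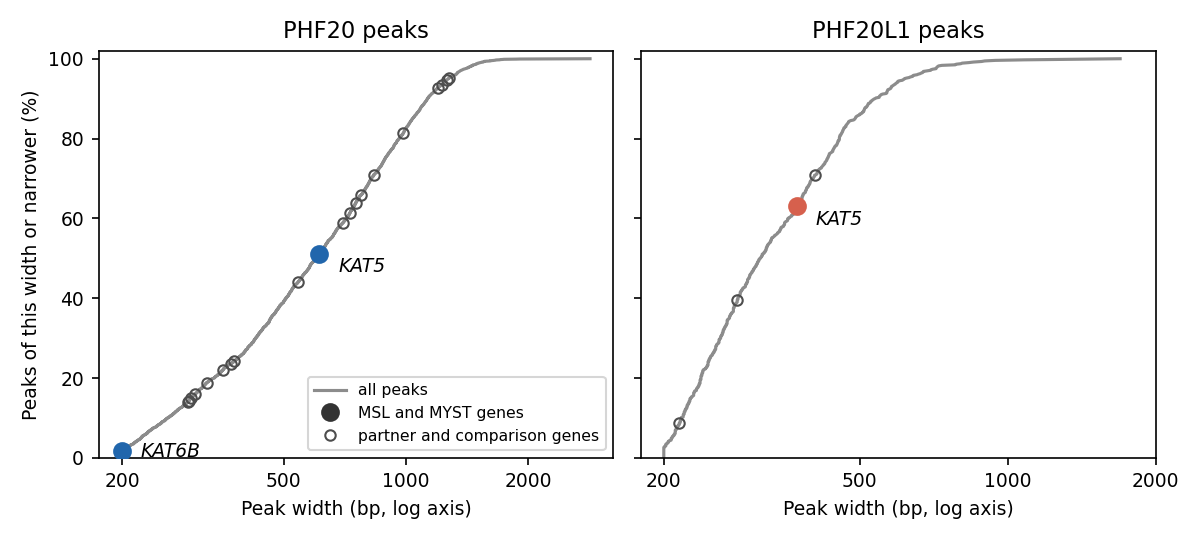
Cumulative share of peaks (y axis, %) by peak width in bp (x axis, log scale) for PHF20 (left) and PHF20L1 (right), with all peaks as a line, peaks of MSL and MYST genes as filled points and those of partner and comparison genes as open points. KAT5 lies near the middle of both curves at 612 and 373 bp, and KAT6B at the lower end of the PHF20 curve at 200 bp.

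The 3 MSL genes had no peak of either protein and differed in how far away the nearest one was. Over the 15885 protein-coding genes without a PHF20 promoter peak, the median distance from the canonical TSS to the nearest PHF20 peak was 163770 bp (interquartile range 60100 to 469260 bp). MSL1 (ENSG00000188895.12, chromosome 17, 40121971 to 40136917, plus strand) was the closest, with a PHF20 peak 8363 bp upstream, from 40113409 to 40113608. Only 2.67% of genes without a promoter peak had a nearer one. This peak also had the smallest width of 200 bp, and the annotated TSS nearest to it was that of ENSG00000279199. Among protein-coding genes the nearest TSS was that of MSL1. MSL2 (ENSG00000174579.5, chromosome 3, 136148917 to 136197241, minus strand) had no PHF20 peak within 500000 bp. Its nearest, 556409 bp upstream, was a peak of 205 bp near the TSS of STAG1. MSL3 (ENSG00000005302.19, chromosome X, 11758159 to 11775772, plus strand) was the farthest of the 7 genes, with the nearest PHF20 peak 1976583 bp away at OFD1. Of the genes without a promoter peak, 94.8% were closer to one. PHF20L1 peaks were farther still, at 433662 bp from MSL1, 2534370 bp from MSL2 and 35900712 bp from MSL3, against a median of 986180.5 bp over genes without a PHF20L1 promoter peak. MSL1 was thus nearer than that median, and MSL2 and MSL3 were beyond it. The X chromosome held 44 PHF20 and 6 PHF20L1 peaks. Of its 859 protein-coding genes, 5.01% had a PHF20 promoter peak and 0.699% a PHF20L1 one, against 20.7% and 3.82% of all.

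KAT6A and KAT7 were also without a peak. KAT6A (ENSG00000083168.11, chromosome 8, 41929479 to 42051994, minus strand) had its nearest PHF20 peak 219310 bp upstream of the TSS, at the promoter of IKBKB. Its nearest PHF20L1 peak, 236 bp wide, lay 223177 bp from the TSS on the other side of the gene. KAT7 (ENSG00000136504.15, chromosome 17, 49788624 to 49835026, plus strand) had peaks of both proteins 80038 and 80263 bp upstream, at the promoter of SLC35B1. The PHF20 peak there was 1198 bp wide, at percentile 92.7, and the PHF20L1 peak 579 bp, at percentile 92.6. Within 500000 bp of the canonical TSS there were 13 PHF20 and 3 PHF20L1 peaks around KAT5, the KAT5 peaks included. The corresponding PHF20 numbers were 7 for MSL1, 3 each for KAT6A and KAT6B, 2 for KAT7 and 0 for MSL2 and MSL3, against a median of 2 over all protein-coding genes.

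**Figure D3:**
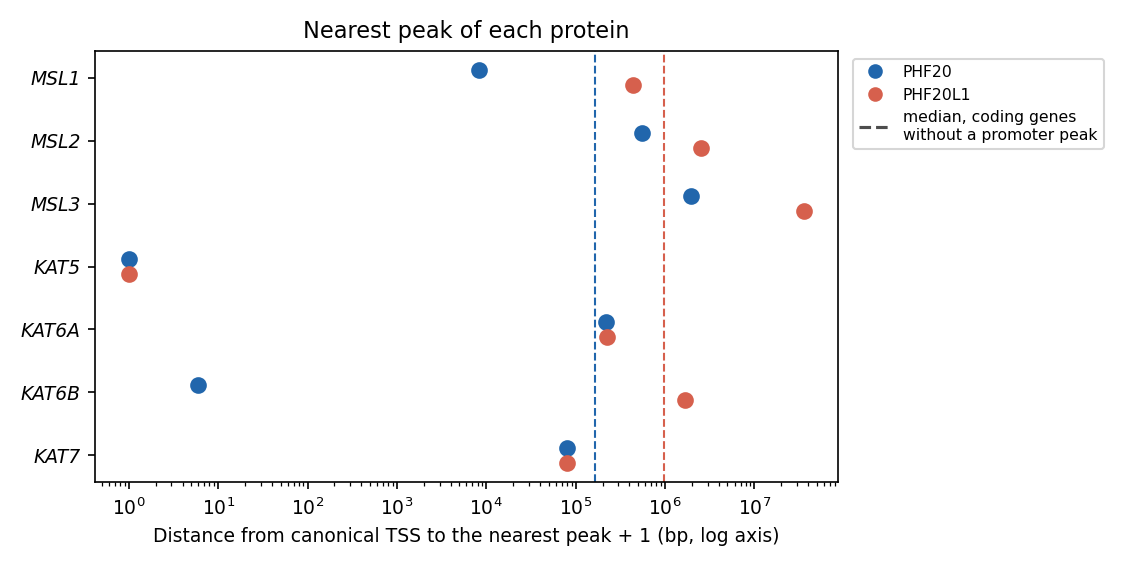
Distance in bp (log axis, 1 bp added) from the canonical TSS of each gene to the nearest PHF20 and PHF20L1 peak, with dashed lines at the medians of protein-coding genes without a promoter peak. KAT5 is under peaks of both proteins, KAT6B is 5 bp from a PHF20 peak, and MSL2 and MSL3 lie beyond both medians.

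Only reads of 50 bp with a unique position were kept by the authors, so the uniqueness of the promoters was measured. In the windows of the canonical TSS of the 6 genes other than KAT5, all 1452 stretches of 50 bp occurred once in hg38, and in that of KAT5 1430 did (98.5%). Copies with mismatches were not counted, nor were copies on the mitochondrial genome or on hg38 sequences outside the main chromosomes. The number of annotated TSSs also differs between genes and sets how much sequence is searched. The windows covered from 3916 bp for MSL2 to 12189 bp for KAT6B, against a median of 3700 bp over all protein-coding genes. KAT5, with 5674 bp, had less window than MSL1 (8170 bp), MSL3 (7791 bp), KAT6A (9371 bp) and KAT7 (11013 bp).

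Relative to their C and G content, all 7 promoters had more CpG dinucleotides than the median protein-coding gene, those without peaks included. KAT5 was only slightly above that median, at percentile 54.2. In the window of the canonical TSS, the GC content was 59.6% for KAT5 and 52.6% for KAT7, and between 66.9% and 71.2% for the other 5 genes. The median over 20030 protein-coding genes was 57.1%. The CpG observed/expected ratio, the number of CpG dinucleotides relative to that given by the C and G content, was lowest in KAT5 with 0.690, and highest in MSL2 with 0.892 and MSL3 with 0.866. The median ratio was 0.670 over all protein-coding genes, 0.743 in genes with a PHF20 promoter peak and 0.629 in those without. Of the genes without a peak, MSL2, MSL3, KAT6A (0.796) and KAT7 (0.753) were above the median of the genes with one, and MSL1 (0.739) was below it. Of those with a PHF20 peak, KAT6B (0.774) was above this median and KAT5 was below it. In a comparison chosen after these values were seen, 6550 protein-coding genes had both measures inside the range of the 7 genes. Of these, 30.2% had a PHF20 promoter peak and 4.70% a PHF20L1 one, which are higher than the shares over all genes.

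**Figure D4:**
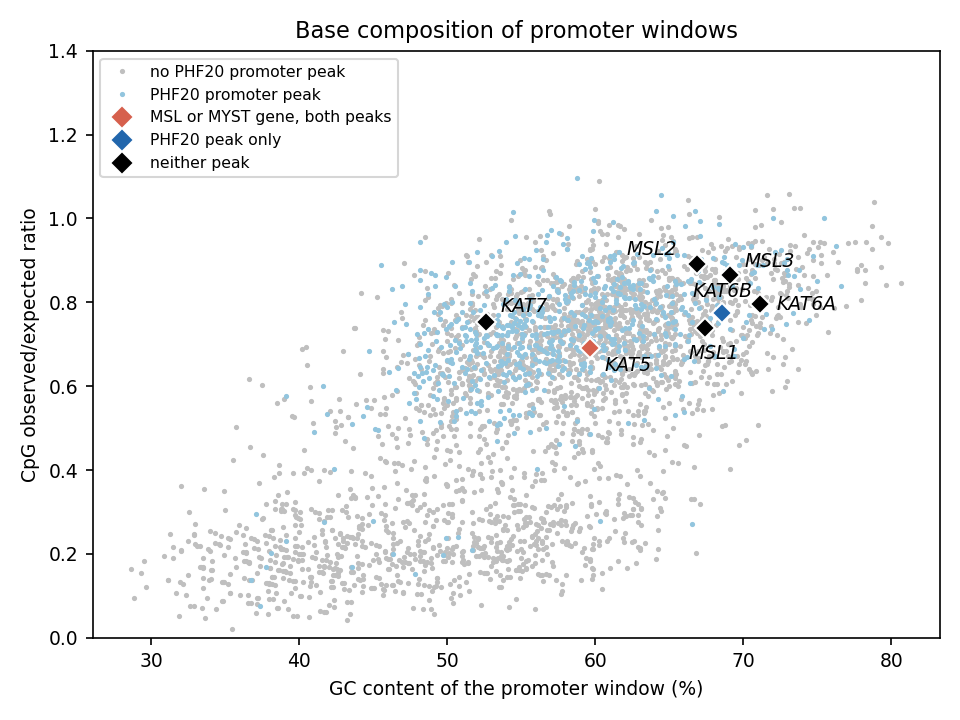
GC content in % (x axis) and CpG observed/expected ratio (y axis) of the promoter window of the canonical TSS, with 1 in 6 protein-coding genes as dots coloured by the presence of a PHF20 promoter peak and the 7 genes as diamonds. KAT5 has the lowest ratio of the 7 genes at 0.690, and MSL2 and MSL3, which have no peak, the highest ones.

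KAT5 had the most sequence matches of the 7 genes. The 6 elements of 8 bp searched on both strands were ACTTCCGG (bound by ETS factors), CACGTGAC (an E-box bound by basic helix-loop-helix zipper factors), TCTCGCGA, AAGATGGC (YY1), ACTACAAT (part of the ZNF143 site) and GCGCATGC (NRF1). ACTTCCGG and CACGTGAC had been seen in earlier results of these data. How often they occur in genes with a peak is therefore no independent evidence of a link to either protein. The KAT5 window held CACGTGAC 4 times, between -285 and -235 bp from the canonical TSS, as in the lines printed above. Of these, 2 overlap on opposite strands of 1 palindrome, leaving 3 separate places. It held ACTTCCGG 2 times, at -36 and -11 bp, read as CCGGAAGT on the strand shown. AAGATGGC occurred 1 time, and its ATG at 65712268 to 65712270 is an annotated start codon of KAT5. All 7 matches lay inside both the PHF20 and the PHF20L1 peak. CACGTGAC was found in 5.27% of the 20030 windows, ACTTCCGG in 8.63% and AAGATGGC in 8.93%. Windows with both an E-box and an ETS match numbered 126 (0.629%), of which 68 belonged to genes with a PHF20 promoter peak and 26 to genes with a PHF20L1 one. These shares were 54.0% and 20.6%, against 51.4% and 12.8% of windows with an ETS match. They were 37.9% and 9.28% of windows with an E-box match, and 20.7% and 3.82% of all protein-coding genes. Matches were counted in the window of the canonical TSS, and peaks at the promoter of any transcript of the gene. In such shares the peak therefore need not lie in the window with the match.

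In the other 6 windows matches were fewer and none lay in a peak. KAT7 held 1 ACTTCCGG at -41 bp, a position close to those in KAT5. Of the 1729 genes with this element in that window, 51.4% had a PHF20 peak at the promoter of any transcript, and KAT7 is among the remaining ones. KAT6A held CACGTGAC at -242 bp and AAGATGGC at 9 bp, 1 time each, and these positions are also close to those in KAT5. MSL1 held GCGCATGC at -4 bp and AAGATGGC at -745 bp, and MSL2 held GCGCATGC 3 times, at 0 and -118 bp and 1 time further upstream. GCGCATGC was found in 7.61% of all windows and in 9.86% of those with a PHF20 promoter peak. MSL3 and KAT6B held none of the 6 elements, as did 70.6% of all windows, and the PHF20 peak of KAT6B held none either. A match describes the sequence and does not show that a factor is bound. The bases under the peaks had a GC content of 64.1% at the PHF20 peak of KAT5 and 71% at that of KAT6B, against a median of 62.9% over all PHF20 peaks. Their CpG observed/expected ratios were 0.733 and 0.913, against a median of 0.786, so that KAT5 lay below and KAT6B above it.

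KAT8 itself, which belongs to the NSL complex, had no promoter peak of either protein, and its nearest PHF20 peak was 42859 bp upstream at ZNF668. The genes of the partner subunits of KAT5 had promoter peaks in 8 of 17 cases for PHF20 and 2 of 17 for PHF20L1, against 20.7% and 3.82% of all protein-coding genes. DMAP1, a NuA4 subunit also known to bind a DNA methyltransferase, had a PHF20 peak of 985 bp and a PHF20L1 peak of 215 bp. RUVBL1, an ATPase of NuA4 and of chromatin remodelers, had a PHF20 peak of 1226 bp at its canonical TSS, another of 834 bp at an alternative TSS, and a PHF20L1 peak of 405 bp inside the wider one. The narrower PHF20 peak also lay in a TSS window of EEFSEC. TRRAP (752 bp), VPS72 (699 bp), EPC1 (354 and 290 bp), MORF4L1 (323 bp), ACTL6A (296 bp) and MBTD1 (378 bp) had PHF20 peaks only. The MBTD1 peak also lay in a window of UTP18, and the EPC1 peaks in windows of EPC1-AS1 and EPC1-AS2, all on the other strand. EP400, the large remodeling ATPase of the complex, and YEATS4, ING3, EPC2, BRD8, MRGBP, MORF4L2, MEAF6 and RUVBL2 had neither.

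Among the 9 partners of KAT6A, KAT6B and KAT7, PHF20 peaks were found at 3 promoters and a PHF20L1 peak at 1. The shares over all protein-coding genes were 20.7% and 3.82%. ING4, a reader of methylated histone H3 in KAT7 complexes, had a PHF20 peak of 1261 bp, at percentile 94.7, and a PHF20L1 peak of 282 bp within it, both also in a window of a lncRNA gene on the other strand. BRPF1, the scaffold of KAT6A and KAT6B, had a PHF20 peak of 727 bp, with its centre 30 bp from the nearest TSS. ING5 had one of 303 bp, which was centred at -14776 bp from the canonical TSS, lay in the window of 1 of its 13 transcripts and also in a window of DTYMK. BRD1, BRPF3, JADE1, JADE2, JADE3 and MEAF6 had no peak. Compared by the widest PHF20 promoter peak of each gene, the partner or comparison gene nearest to KAT5 was DMAP1, of 3 with both proteins. The difference was 373 bp, and the narrower PHF20 peak of RUVBL1 (834 bp) was closer in width to that of KAT5. The PHF20L1 peak of DMAP1, with 215 bp, was less like that of KAT5 (373 bp) than those of RUVBL1 (405 bp) and ING4 (282 bp). By the same measure the gene nearest to KAT6B was NCOA1 with 292 bp, of 14 with PHF20 alone. The narrower EPC1 peak, with 290 bp, was slightly closer in width.

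**Figure D5:**
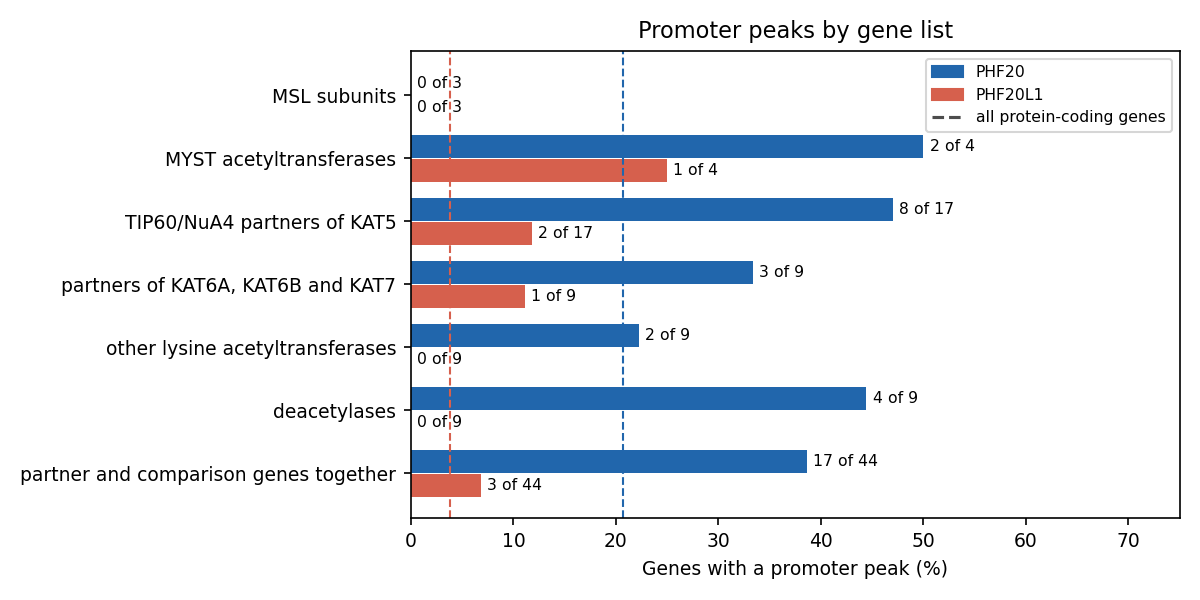
Share of genes in % with a promoter peak of PHF20 (blue) or PHF20L1 (red) in each gene list, with counts beside the bars and dashed lines at the shares of all protein-coding genes, 20.7% and 3.82%. The MSL list has 0 of 3 genes for both proteins, and the TIP60/NuA4 list has 8 of 17 for PHF20.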

How the data were processed

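HA ChIP-Seq was done in U2OS cells in 8 libraries, grouped by their GEO titles. Reads had been mapped by the authors (Bowtie 1.1.2, hg38); they kept unique and deduplicated reads and called peaks with MACS2 2.2.7.1 against input. Blacklisted regions were removed. Peaks of the best replicate that overlapped those of the others, which were called at a looser p-value cut-off, formed 1 list per protein. A PHF20 replicate with few peaks had been left out by them. The deposited values are peak starts and ends in bp, used here as 1-based positions, and they hold no depth. Of other per-sample columns there were 0.

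Peaks were compared with GENCODE release 44 (mitochondrial genes left out), a later release than that of the authors, with 0 peaks beyond the chromosome ends of the hg38 copy. Width percentiles count narrower peaks, with ties counted in part. The canonical TSS is that of the Ensembl canonical transcript. Sequences came from hg38 with samtools 1.23.1 as the indexer. Python 3.11.15, numpy 2.4.6, scipy 1.17.1 and matplotlib 3.10.9 were used. Interval overlaps were tested on simulated data. The genes, lists, elements and alternatives were chosen with earlier results of these data known. Genes named are the 7 genes, those with TSS windows under the peaks, and the partner genes with peaks of both proteins or the widest peak. The partner genes named besides these were added after their values were seen. Alternatives were other TSS sets, windows, placement rules, peak widths and overlap rules.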

Additional observations from a re-analysis of the deposited data

How the results depend on the processing

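No paired analysis was possible because each protein has 1 list with no values by replicate, and for the same reason no replicate could be left out. KAT5 had a promoter peak of both proteins under all 7 alternatives. KAT6B lost its PHF20 peak under 3, so that the number of the 7 genes with a PHF20 peak was 1 with the outermost TSS of each gene, with peaks of at least 300 bp and with peaks of median width or more. The share of protein-coding genes with PHF20 was 17.8%, 18.6% and 12.1% in these, and 20% with protein-coding transcripts alone. For PHF20L1 it was 3.21%, 2.27% and 2.11%. Partner and comparison genes with PHF20 numbered 17 under the main settings. They numbered 13 with the outermost TSS, 15 with peaks of at least 300 bp and 9 with median width or more. Those with PHF20L1 numbered 3 under the main settings and 2, 1 and 1 under these alternatives. The overlap of both peaks at KAT5 held under both stricter overlap rules. The lists give no height, so whether a narrow peak such as that of KAT6B is a weak one could not be measured.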

Other observations

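Deacetylases are the enzymes that remove acetyl groups. A list of 9 of their genes was chosen as deacetylases of H4K16 or histone H3 and is not the whole family. PHF20 promoter peaks were found at 4 of the 9 and PHF20L1 peaks at 0, against 20.7% and 3.82% of all protein-coding genes. SIRT1, a deacetylase of histones and transcription factors, had the widest with 1199 bp, followed by SIRT3 (777 bp), HDAC8 (541 bp, also in a window of ENSG00000285547) and SIRT6 (370 bp). The SIRT3 peak also lay in a window of PSMD13 and that of SIRT6 in a window of ANKRD24. HDAC1, HDAC2, HDAC3, SIRT2 and SIRT7 had no peak. Among 9 acetyltransferase genes outside the MYST family 2 had a PHF20 peak, near the 20.7% of all genes. KAT14 had a PHF20 peak of 1279 bp, which also lay in a window of PET117, and NCOA1 had one of 292 bp. EP300, CREBBP, KAT2A, KAT2B, HAT1, NAA40 and NCOA3 had none, and no gene of this list had a PHF20L1 peak.

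The number of CACGTGAC matches at KAT5 was looked at after it was seen, and the element itself came from earlier results of these data. The shares given here are therefore descriptive and are no independent evidence of a link between the element and binding. Matches were again counted in the window of the canonical TSS, and peaks at the promoter of any transcript of the gene. Of the 1056 promoter windows with any match, 37.9% belonged to genes with a PHF20 promoter peak and 9.28% to genes with a PHF20L1 one, against 20.7% and 3.82% of all protein-coding genes. At least 4 matches, the number at KAT5, were held by 12 of 20030 windows, KAT5 included, of which 11 had a PHF20 promoter peak and 3 a PHF20L1 one. The 3 with PHF20L1 were KAT5, GIGYF1 and LAMP1, and the 1 without a PHF20 peak was GET4, with 7 matches. Of the 12, KAT5 was the one that also held ACTTCCGG. Counting separate places, 20 windows had at least 3, of which 14 had a PHF20 peak and 6 a PHF20L1 one. Some of these windows belong to neighbouring genes that share a promoter, such as HPS5 and GTF2H1, and were counted for each gene.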
